A study of Mus musculus with 8 samples.

Results

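The 10 genes described here encode the 3 TGF-beta ligands (Tgfb1, Tgfb2 and Tgfb3), the 4 latent TGF-beta binding proteins (Ltbp1, Ltbp2, Ltbp3 and Ltbp4) and the 3 TGF-beta receptors (Tgfbr1, Tgfbr2 and Tgfbr3). They were chosen by gene symbol, through the RefSeq accession that the scanner files give for each probe. All 10 were among the 17093 genes tested (12031 with a symbol and the rest probes without one), and they had 15 probes between them, each well above background on all 8 arrays. Cultured dermal fibroblasts of newborn C57BL/6 mice received by transfection a miR-127-3p mimic (samples 2, 4, 5 and 7) or control oligonucleotides (samples 1, 3, 6 and 8), and total RNA of each sample was hybridised in Cy3 to its own Agilent mouse array. A mimic is synthetic double-stranded RNA that cells load as if it were the microRNA itself. The labels do not say whether the 4 samples of a group came from separate animals, so p-values measure the spread between these samples, which may be technical. The titles and source names call samples 3 and 6 controls, while their treatment label names both oligonucleotides. The log2 fold changes of the 10 genes and the counts of the pathway lists are also given without them, and values of single pathway genes, markers and nearest genes only with them.

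TGF-beta is made as a precursor whose propeptide stays wrapped around the ligand and keeps it inactive. In fibroblasts the propeptide is joined to a latent TGF-beta binding protein, which anchors the complex in the extracellular matrix until integrins, proteases or thrombospondin release the ligand. The free ligand brings together the type II receptor Tgfbr2 and the type I receptor Tgfbr1, which phosphorylates SMAD proteins, and betaglycan, the product of Tgfbr3, presents the ligand to them. In skin this pathway drives matrix production and the change of fibroblasts into contractile myofibroblasts.

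The transfected microRNA is shown first because its seed, bases 2 to 8, is the part that pairs with target transcripts. Its mature sequence is that of RefSeq (GRCm38.p6, chr12:109592888-109592909, plus strand), with the seed in capitals.
miR-127-3p: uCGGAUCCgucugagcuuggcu
The matching site in a transcript, written as DNA, is GGATCCG. Transcript sequences of the 10 genes were not used here, so whether any of them carries this site was not examined.

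With the mimic, 2 of the 10 genes rose, 2 fell and 6 did not pass the test (limma, adjusted p under 0.05). The rises were in Ltbp2, a microfibril protein of the Ltbp family, at 3.21-fold, and in the ligand gene Tgfb1 at 1.86-fold. The falls were in the ligand gene Tgfb2, to 0.581 of the control level, and in the type II receptor gene Tgfbr2, to 0.674. Of all 17093 genes tested, 34.2% were called, 15.9% higher and 18.3% lower with the mimic, so 4 of 10 is near the share of all genes. In 3 of the 10 genes the groups did not overlap, as in 34.2% of all genes. The median log2 fold change of the 10 genes was 0.05, against 0.02 over all genes tested. Levels below are log2 signals relative to the 75th percentile of the array, so 0 is the level of a probe brighter than 75% of probes. A log2 fold change is the mean of the mimic arrays minus the mean of the control arrays, with the standard error (SE) of the fit. Levels of different probes cannot be set against each other, since probes differ in how well they bind.

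**Figure D1:**
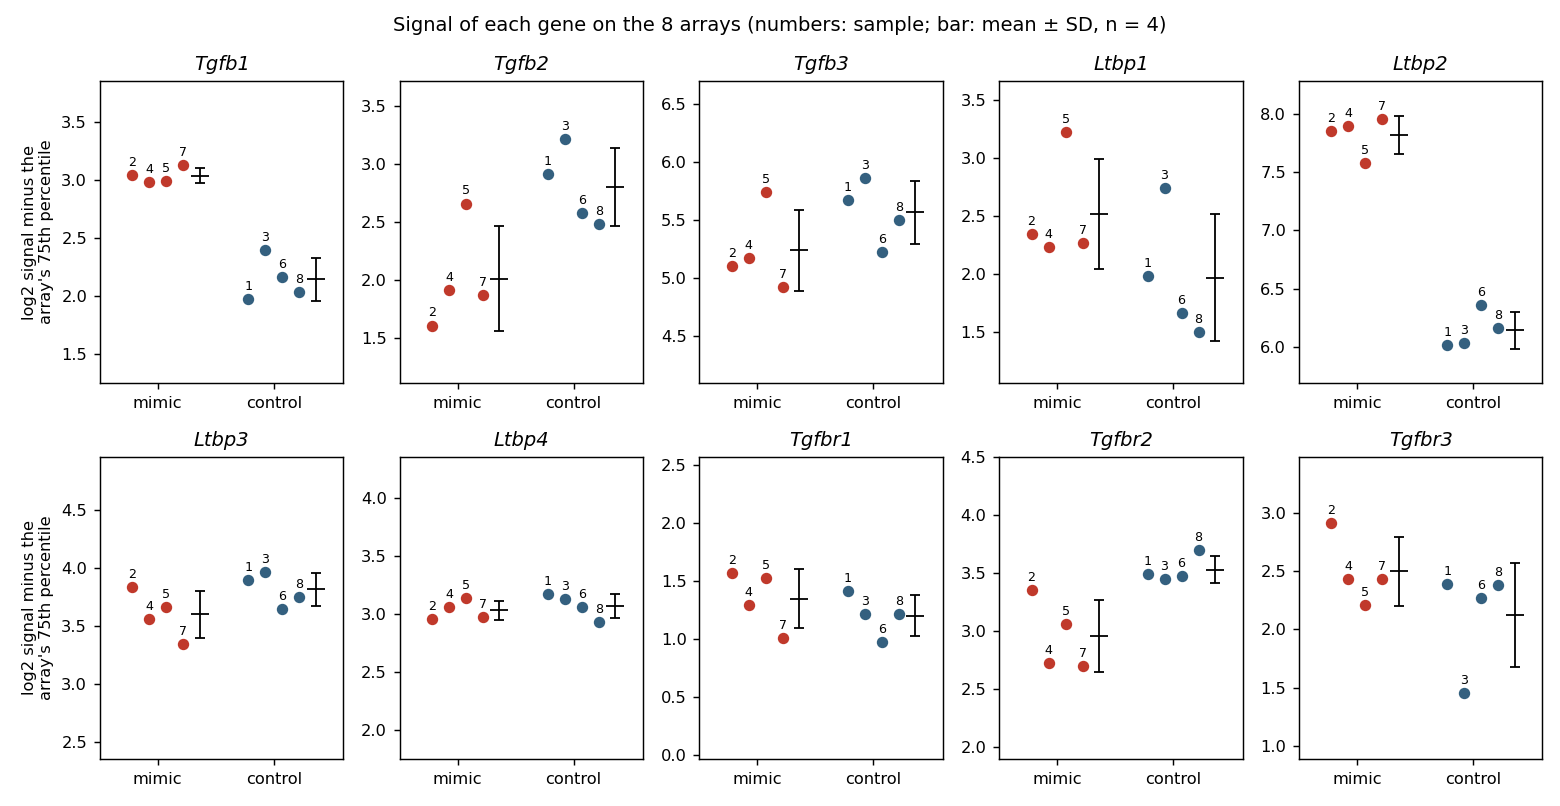
Log2 signal relative to the array's 75th percentile (vertical axis, the same span of 2.6 in every panel) of the probe that stands for each of the 10 genes, in mimic arrays (red, left) and control arrays (blue, right). Numbers are sample numbers and bars are means ± SD (n = 4). The groups do not overlap for Tgfb1 and Ltbp2, which are higher with the mimic, or for Tgfbr2, which is lower.

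Among the ligands, Tgfb1 rose while Tgfb2 fell. Tgfb1, the main ligand in wound repair and fibrosis, had levels of 3.04, 2.98, 2.99 and 3.13 in mimic samples 2, 4, 5 and 7, against 1.98, 2.40, 2.17 and 2.04 in control samples 1, 3, 6 and 8. Every mimic array lay above every control array, and the mimic arrays were close together (SD 0.07, against 0.19 in controls). It rose by 0.89 on the log2 scale (adjusted p = 0.000403, SE 0.10, limma, n = 4 per group). The Tgfb1 probe was spotted 10 times on each array, of which 9 or 10 spots were usable, and its spots differed within an array with an SD of 0.026 to 0.077. The lowest single Tgfb1 spot of any mimic array read 2.85, above the highest of any control array at 2.45. These spots are copies of 1 probe, the only one for Tgfb1, so they do not check the rise with another probe. Within slide row 1, with 2 arrays per group, the change was 0.83 and its call was lost (adjusted p = 0.0612), and without samples 3 and 6 it was 1.03. Of all genes tested, 5.14% rose by as much as Tgfb1 or more.

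Tgfb2, a ligand that relies on betaglycan to bind its receptors well, was measured by a pair of probes, and each of them was lower with the mimic. The brighter probe had levels of 1.61, 1.91, 2.66 and 1.88 in mimic samples 2, 4, 5 and 7, against 2.92, 3.22, 2.58 and 2.48 in control samples 1, 3, 6 and 8. Mimic 5 lay inside the control range, and the other 3 mimic arrays lay below all controls. This probe had -0.78 as its log2 fold change (adjusted p = 0.0368, SE 0.24, limma, n = 4 per group). The dimmer Tgfb2 probe had levels of -0.89, -0.68, -0.11 and -1.04 in the mimic samples, against 0.92, 0.78, 0.16 and 0.36 in the control samples, with no overlap. Its log2 fold change was -1.23 (adjusted p = 0.00458, SE 0.23, limma over 21964 probes), larger in size than that of the brighter probe. The call of Tgfb2 by its brighter probe was lost without any single one of mimic 2, 4 or 7 or control 1 or 3 (log2 fold changes of -0.74 to -0.64 without mimic 2, mimic 7, control 1 or control 3 and -0.75 without mimic 4, adjusted p between 0.0771 and 0.0885). With slide row as a block the fold stayed at -0.78 and the call was lost too (adjusted p = 0.0539). Without samples 3 and 6 it was -0.69 (adjusted p = 0.127).

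Tgfb3, the third ligand, did not pass the test. Its levels were 5.11, 5.17, 5.74 and 4.92 in mimic samples 2, 4, 5 and 7, against 5.67, 5.86, 5.22 and 5.50 in control samples 1, 3, 6 and 8. The groups overlapped, with 3 of 4 mimic arrays below all controls and mimic 5 inside the control range. Its change was -0.33 on the log2 scale (adjusted p = 0.231, SE 0.20, limma, n = 4 per group), and without mimic 5 it was -0.495 (adjusted p = 0.0447). Without samples 3 and 6 the change of Tgfb3 was -0.35. The spots of the Tgfb3 probe differed by an SD of 0.035 to 0.047 within an array, against SDs between arrays of 0.35 with the mimic and 0.27 in controls.

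Because ligand probes differ in brightness, a shift between ligands was examined as the log2 difference of their signals within each array. Tgfb1 minus Tgfb2 averaged 1.02 ± 0.48 with the mimic and -0.65 ± 0.27 in controls (SD, n = 4 each), a change of 1.68. Tgfb1 minus Tgfb3 changed by 1.22, with mimic values of -2.74 to -1.80 and control values of -3.69 to -3.06. Tgfb2 minus Tgfb3 changed by -0.46, with mimic values of -3.50 to -3.05 and control values of -3.01 to -2.64. None of these 3 differences overlapped between the groups (exact permutation p = 0.0286 each, two-sided, the smallest that 70 assignments of 4 and 4 arrays allow, and adjusted p = 0.0490 over 12 pairs). These calls were lost with normexp background correction and with quantile normalization, where 0 of the 12 pairs passed, at changes of 1.56, 1.17 and -0.385 with normexp and 1.68, 1.26 and -0.425 with quantile normalization.

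Among the latent TGF-beta binding proteins, Ltbp2 rose and the other 3 did not pass the test. Ltbp2 binds microfibrils like its relatives but, unlike them, does not bind latent TGF-beta. Its levels were 7.86, 7.90, 7.58 and 7.96 in mimic samples 2, 4, 5 and 7, against 6.02, 6.03, 6.35 and 6.16 in control samples 1, 3, 6 and 8. The lowest mimic array stood more than 1 log2 unit above the highest control array. Ltbp2 rose by 1.68 on the log2 scale (adjusted p = 2.93e-05, SE 0.11, limma, n = 4 per group), which ranked 132 of 17093 genes by p. Of all genes tested, 1.08% rose by as much. Within each slide row the change was 1.85 (row 1) and 1.51 (row 2), and it passed the test in each. Without samples 3 and 6 it was 1.74. Ltbp2 was measured by only 1 probe, with 1 spot on each array.

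Ltbp1, which stores TGF-beta in the matrix of most tissues, varied the most between arrays of a group. Its levels were 2.35, 2.23, 3.22 and 2.27 in mimic samples 2, 4, 5 and 7, against 1.98, 2.74, 1.66 and 1.5 in control samples 1, 3, 6 and 8. Mimic 5 and control 3 were the highest of their groups, and the groups overlapped through control 3. The log2 fold change of Ltbp1 was 0.55 (adjusted p = 0.207, SE 0.31, limma, n = 4 per group), and without control 3 it was 0.80 (adjusted p = 0.0449). Without samples 3 and 6 it was 0.77 (adjusted p = 0.106), and within slide rows it was -0.07 (row 1) and 1.16 (row 2).

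Ltbp3 and Ltbp4, which also bind latent TGF-beta, did not pass the test. Ltbp3 had levels of 3.83, 3.56, 3.66 and 3.35 in the mimic samples, against 3.89, 3.96, 3.65 and 3.75 in the control samples, with overlap. Its log2 fold change was -0.22 (adjusted p = 0.204, SE 0.12), and its second probe gave -0.18 (SE 0.11). Without samples 3 and 6 the change of Ltbp3 was -0.22 and that of Ltbp4 was -0.02. Ltbp4, which is also needed for elastic fibre assembly, had levels of 2.96, 3.06, 3.13 and 2.98 in the mimic samples, against 3.17, 3.13, 3.06 and 2.94 in the control samples. These ranges nearly coincide. The log2 fold change of Ltbp4 was -0.04 (adjusted p = 0.734, SE 0.08), and its second probe gave -0.06 (SE 0.16).

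The within-array difference of Ltbp2 minus Ltbp3 was 4.22 ± 0.31 with the mimic and 2.33 ± 0.29 in controls (SD, n = 4 each). That of Ltbp2 minus Ltbp4 was 4.79 ± 0.23 with the mimic and 3.07 ± 0.23 in controls. Neither overlapped between the groups (exact permutation p = 0.0286, adjusted p = 0.0490 each). Both calls were lost with normexp, at changes of 1.88 and 1.71, and with quantile normalization, at 1.80 and 1.64. The 4 remaining pairs, 3 with Ltbp1 and the pair of Ltbp3 and Ltbp4, overlapped (exact permutation p between 0.0857 and 0.200, adjusted p between 0.114 and 0.218). A p that misses the threshold does not show that these genes changed alike.

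**Figure D2:**
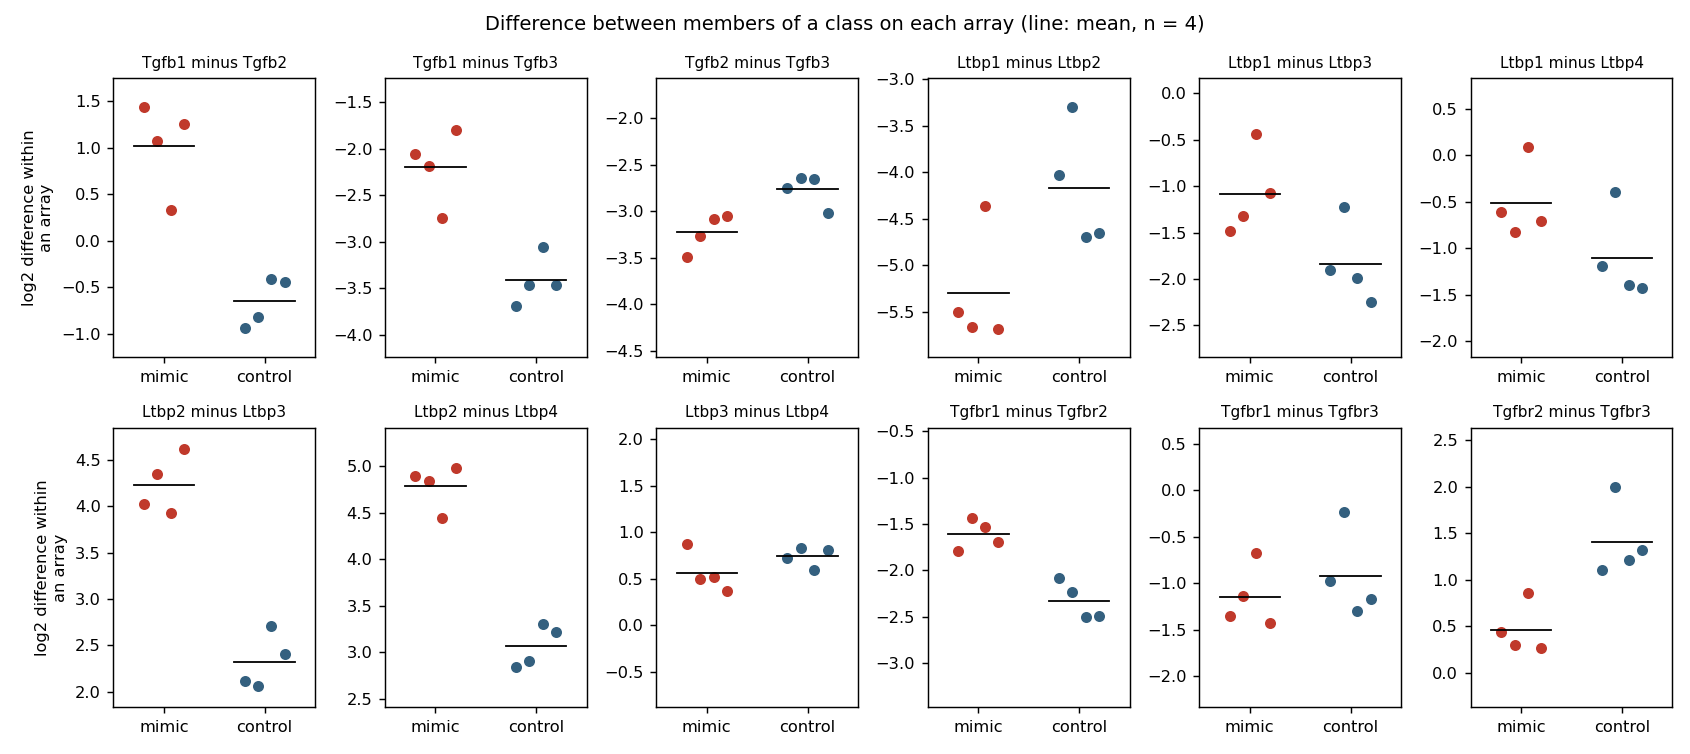
Log2 signal of one gene minus that of another of the same class on each array (vertical axis, log2 units, the same span of 3 in every panel) for the 12 pairs, with mimic arrays in red on the left, control arrays in blue on the right, and lines at the means (n = 4). The groups do not overlap in 7 pairs, among them all 3 ligand pairs. The share over pairs of other genes was not computed.

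Among the receptors, Tgfbr2 was lower with the mimic by its brighter probe, and Tgfbr1 and Tgfbr3 did not pass the test. Tgfbr2, the kinase that binds the ligand first, had levels of 3.35, 2.73, 3.06 and 2.70 in mimic samples 2, 4, 5 and 7, against 3.49, 3.45, 3.48 and 3.70 in control samples 1, 3, 6 and 8. The control arrays were close together, and mimic 2 came nearest to them without reaching them. The log2 fold change of Tgfbr2 was -0.57 (adjusted p = 0.0200, SE 0.15, limma, n = 4 per group). The second Tgfbr2 probe, assigned to the same accession, gave -0.14 (adjusted p = 0.244, SE 0.08), with groups that overlapped. The call of Tgfbr2 was lost without mimic 4, mimic 7 or control 8 (log2 fold changes of -0.49, -0.48 and -0.51, adjusted p between 0.0534 and 0.0574), and without samples 3 and 6 (-0.64, adjusted p = 0.0595). With slide column as a block, each column holding 1 mimic and 1 control array, the fold stayed at -0.57 and the call was lost (adjusted p = 0.0540).

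Tgfbr1, the kinase that passes the signal to SMADs, had levels of 1.56, 1.29, 1.53 and 1.01 in the mimic samples, against 1.41, 1.22, 0.97 and 1.21 in the control samples. The ranges overlapped, and the log2 fold change was 0.15 (adjusted p = 0.473, SE 0.15). Its dimmer probe gave 0.20 (SE 0.22), and without samples 3 and 6 the change of Tgfbr1 was 0.04. Tgfbr3, the gene of betaglycan, had levels of 2.92, 2.43, 2.21 and 2.43 in the mimic samples, against 2.39, 1.45, 2.27 and 2.38 in the control samples. The 3 controls other than control 3 lay within the mimic range. For Tgfbr3 the log2 fold change was 0.38 (adjusted p = 0.251, SE 0.24), 0.15 without control 3 and 0.11 without samples 3 and 6.

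Within arrays, Tgfbr1 minus Tgfbr2 was -1.61 ± 0.16 with the mimic and -2.33 ± 0.20 in controls (SD, n = 4 each). Tgfbr2 minus Tgfbr3 was 0.46 ± 0.27 with the mimic and 1.41 ± 0.40 in controls. Neither overlapped (exact permutation p = 0.0286, adjusted p = 0.0490 each), while Tgfbr1 minus Tgfbr3 did (exact permutation p = 0.486). With these, 7 of 12 pairs passed the threshold. The share of pairs of other genes that would separate was not computed, and 34.2% of single genes did not overlap between the groups. Of the 7, only Tgfb2 minus Tgfb3 holds none of Tgfb1, Ltbp2 and Tgfbr2, whose own groups did not overlap. That pair holds Tgfb2, which was itself called lower. None of the 7 pairs is therefore evidence apart from the changes of single genes. An adjusted p of 0.05 needed at least 7 of the 12 pairs at the smallest p the design allows. With normexp or quantile normalization 6 or fewer reached it, so the receptor calls were lost there too.

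**Figure D3:**
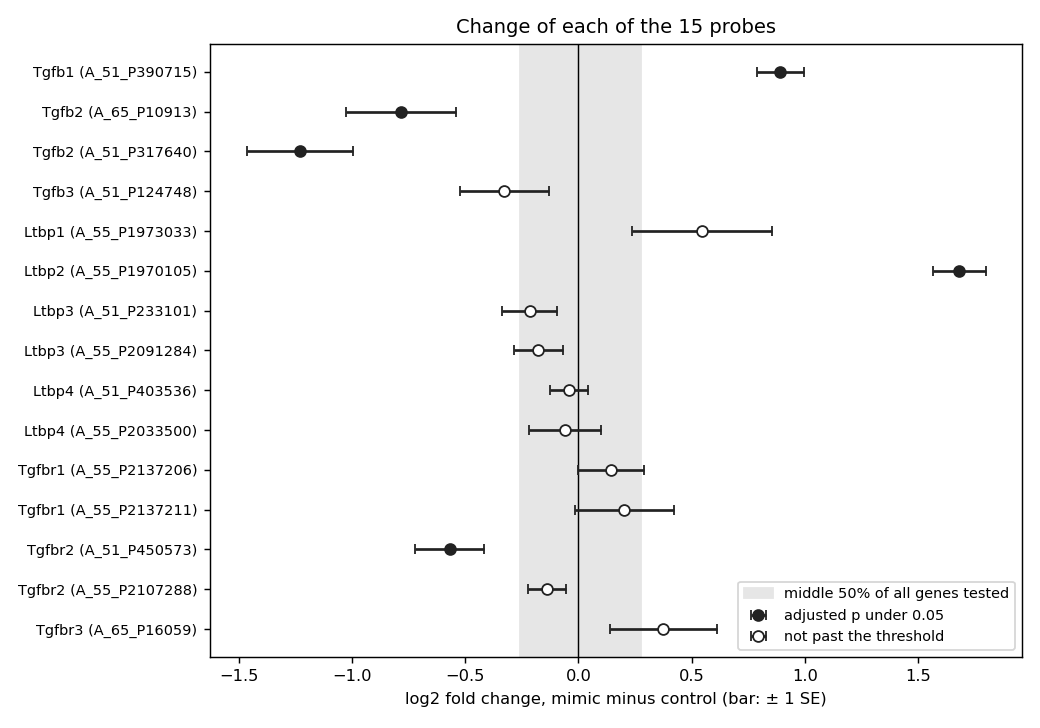
Log2 fold change (mimic minus control, horizontal axis) of each of the 15 probes with bars of ± 1 SE, filled where the adjusted p was under 0.05 in the fit over 21964 probes. The grey band holds the middle 50% of all genes tested, from -0.26 to 0.28. The Tgfb2 probes are both left of the band, while the Tgfbr2 probes are apart, at -0.57 and -0.14.

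At the level of probes, 2 of the 15 were higher and 3 lower with the mimic, where 33.8% of all 21964 probes were called, 15.7% higher and 18.1% lower. Of the 5 genes with a pair of probes, 4 had both probes on the same side of the threshold, and Tgfbr2 did not. Arrays of a group also differed from each other in the same genes. Mimic 5 had the highest Tgfb2, Tgfb3, Ltbp1 and Ltbp4 signals of the mimic arrays and the lowest Ltbp2 and Tgfbr3. Control 3 had the highest Tgfb1, Tgfb2, Tgfb3, Ltbp1 and Ltbp3 signals of the controls and the lowest Tgfbr2 and Tgfbr3. Row 2 of the slide held mimic 5 and row 1 held control 3, and the changes within row 1 and row 2 were -1.31 and -0.26 for Tgfb2, -0.63 and -0.03 for Tgfb3, and 0.76 and -0.00 for Tgfbr3. They were 0.83 and 0.96 for Tgfb1 and -0.43 and -0.71 for Tgfbr2, with 2 arrays per group in each row.

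**Figure D4:**
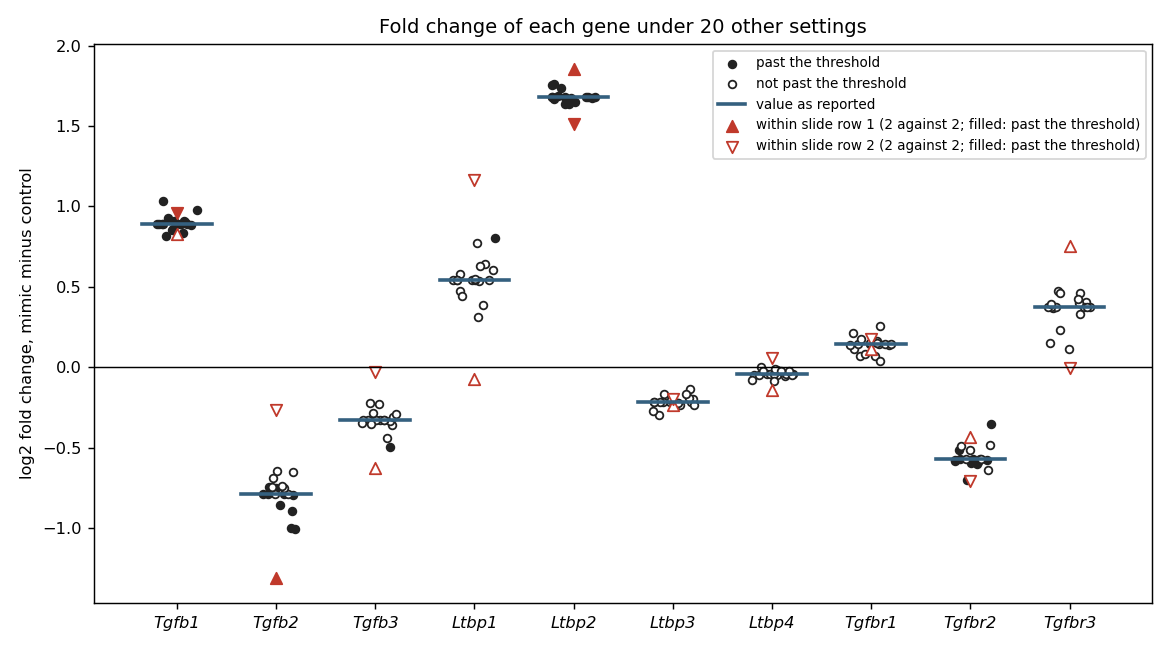
Log2 fold change (mimic minus control, vertical axis) of each of the 10 genes under 20 other settings of processing and samples (points, filled where the adjusted p was under 0.05), within each slide row (triangles) and as reported (blue line). Ltbp2 stays between 1.51 and 1.85 and is past the threshold in all 20, while Tgfb2 spans -1.31 to -0.26.

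Start regions of the genes that were called are shown so that those that rose can be set beside those that fell. Each runs from 250 bases before to 50 bases after a start site in RefSeq (GRCm38.p6), in the direction of the gene, and 8 of the 10 genes had one. Capitals mark matches on either strand to GGGCGG, the Sp1 motif, and to TATAAA, the TATA box. The other motifs searched were TGANTCA, the AP-1 motif, and GTCTAGAC, the SMAD4 palindrome, and no marked match overlaps another in the 4 regions printed.
Tgfb1, higher with the mimic, chr7:25686752-25687051, plus strand: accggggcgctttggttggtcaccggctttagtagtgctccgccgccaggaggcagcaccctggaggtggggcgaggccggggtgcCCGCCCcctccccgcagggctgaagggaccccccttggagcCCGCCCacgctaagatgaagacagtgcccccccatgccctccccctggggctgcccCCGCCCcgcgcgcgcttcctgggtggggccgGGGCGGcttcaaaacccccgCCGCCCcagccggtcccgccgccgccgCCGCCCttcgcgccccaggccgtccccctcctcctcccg
Ltbp2, higher with the mimic, chr12:84876442-84876741, minus strand: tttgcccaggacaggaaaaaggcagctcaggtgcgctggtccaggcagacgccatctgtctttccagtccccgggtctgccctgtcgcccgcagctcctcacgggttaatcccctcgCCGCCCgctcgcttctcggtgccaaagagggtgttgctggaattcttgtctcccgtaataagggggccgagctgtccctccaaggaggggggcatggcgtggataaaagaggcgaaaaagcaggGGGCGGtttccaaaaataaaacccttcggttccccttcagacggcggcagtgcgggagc
Tgfb2, lower with the mimic, chr1:186705940-186706239, minus strand: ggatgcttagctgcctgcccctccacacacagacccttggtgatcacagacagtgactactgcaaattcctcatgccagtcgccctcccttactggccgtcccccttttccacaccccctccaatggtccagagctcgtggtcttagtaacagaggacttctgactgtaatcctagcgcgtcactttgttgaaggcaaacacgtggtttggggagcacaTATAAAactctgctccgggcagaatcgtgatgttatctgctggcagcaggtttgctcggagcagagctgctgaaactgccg
Tgfbr2, lower with the mimic, chr9:116175314-116175613, minus strand: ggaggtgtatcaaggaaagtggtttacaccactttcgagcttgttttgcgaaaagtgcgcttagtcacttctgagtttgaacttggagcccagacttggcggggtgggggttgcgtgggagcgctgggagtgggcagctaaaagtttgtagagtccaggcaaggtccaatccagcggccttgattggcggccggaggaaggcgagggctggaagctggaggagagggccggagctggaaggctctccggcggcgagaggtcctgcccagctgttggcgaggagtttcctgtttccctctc
The Sp1 motif stood 6 times in the Tgfb1 region and 2 times in the Ltbp2 region, and not in those of Tgfb2 and Tgfbr2. It also stood in regions of Ltbp4 and Tgfbr1, which did not pass the test, and in 35.7% of all 32851 regions of this kind. The TATA box stood 31 bases before the start of Tgfb2 and in 13.6% of all regions. The SMAD4 palindrome stood in none of the 12 regions listed for these genes and in 0.213% of all regions, and the AP-1 motif stood only in the Ltbp3 region and in 7.81% of all. A match is a run of letters and not evidence that a factor binds.

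Other genes of the pathway were taken from 7 lists. Of 118 genes listed, 97 were tested, and 34 rose, 12 fell and 51 did not pass the test, which is 47.4% called against 34.2% of all genes. Their median log2 fold change was 0.24, against 0.02 over all genes tested. The lists were chosen with earlier results of these data known, so these differences cannot show that the pathway changed more than other genes. No test set the pathway apart from other genes. Without samples 3 and 6, 27 pathway genes rose and 9 fell, beside 2333 rises and 2339 falls among all genes. By list, the rises and falls without them were 8 and 1 for activators, 2 and 1 for matrix partners, and 5 and 0 for co-receptors. They were 2 and 2 for SMADs, 6 and 3 for SMAD-responsive genes, 1 and 2 for other receptors, and 3 and 0 for other ligands.

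Genes that free the ligand or cut its propeptide had 7 rises among 13 tested, where 15.9% of all genes rose and 18.3% fell. The other 6 did not pass the test, and the median log2 fold change of the list was 0.52. The propeptide convertase gene Pcsk5 had a level of 2.47 ± 0.24 with the mimic and 0.47 ± 0.23 in controls (SD, n = 4 each), a log2 fold change of 1.99 (adjusted p = 4.90e-05, SE 0.15). The gelatinase gene Mmp2 rose by 1.93 (SE 0.20) and thrombospondin 1, Thbs1, which activates latent TGF-beta, by 0.81 (SE 0.15). The integrin subunit genes Itgb5 (0.52, SE 0.08) and Itgb1 (0.60, SE 0.14), the membrane protease gene Mmp14 (0.48) and the plasminogen activator gene Plat (0.66) rose as well. Furin, the main convertase of the TGF-beta propeptide, had a log2 fold change of 0.00 (adjusted p = 0.991, SE 0.16), and Itgav, the partner of these integrin chains, one of 0.38 (adjusted p = 0.0592).

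Of 13 tested matrix partners of latent TGF-beta, 3 rose and 1 fell, which is near the 34.2% called among all genes. Lrrc32, which holds latent TGF-beta on the cell surface, had a level of 7.29 ± 0.14 with the mimic and 6.38 ± 0.30 in controls (SD, n = 4 each), a log2 fold change of 0.91 (adjusted p = 0.00262, SE 0.15). The elastic fibre protein gene Fbln5 rose by 0.73 and the microfibril gene Mfap5 by 0.83, while fibrillin 2, Fbn2, had a log2 fold change of -1.19 (adjusted p = 0.0298, SE 0.35). Fibrillin 1, Fbn1, to which Ltbp proteins attach, had one of 0.23 (adjusted p = 0.165) and fibronectin, Fn1, one of 0.18 (adjusted p = 0.193).

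Of 17 tested co-receptors and modulators at the receptor, 7 rose and 2 fell, where 15.9% of all genes rose and 18.3% fell. Acvrl1, a type I receptor best known from endothelium, had a log2 fold change of 1.24 (adjusted p = 0.000371, SE 0.14), and its co-receptor endoglin, Eng, one of 0.48 (SE 0.09). Vasorin, Vasn, a membrane protein that binds TGF-beta (0.70), and the proteoglycans Bgn (0.40) and Dcn (1.18, adjusted p = 0.0324), which bind it in the matrix, rose. Tsukushi, Tsku, a secreted modulator, rose by 0.73. Strap, a receptor-associated protein (-0.33), and Zfyve9, the anchor that brings SMADs to the receptor (-0.44), fell. Among 6 other receptors of the family, Bmpr1b (0.68) and Bmpr2 (0.46) rose and the activin receptor gene Acvr2b fell (-0.89, SE 0.09, adjusted p = 0.000160).

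Of 9 tested genes in the list of other ligands of the family, 3 rose and 6 did not pass the test, where 15.9% of all genes rose. Those that rose were the activin subunit genes Inhba (1.12, SE 0.23, adjusted p = 0.00629) and Inhbb (0.94, SE 0.09, adjusted p = 0.000111), and Gdf15, a stress-induced ligand (1.15, SE 0.17, adjusted p = 0.00116). Bmp1, counted in this list, is not a ligand but a protease that processes collagen and Ltbp1. It had a log2 fold change of 0.19 (adjusted p = 0.319).

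**Figure D5:**
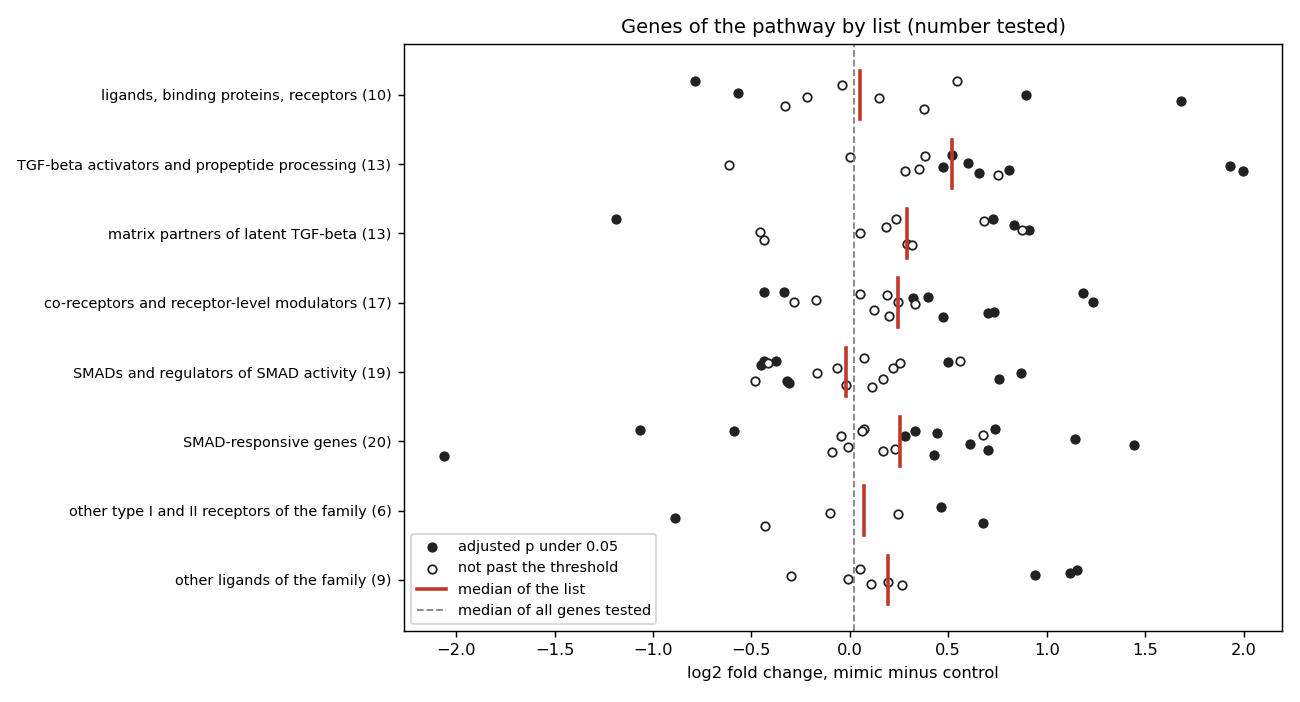
Log2 fold change (mimic minus control, horizontal axis) of each tested gene in the set of 10 and in 7 lists of the pathway, filled where the adjusted p was under 0.05, with red bars at list medians and a dashed line at the median of all genes tested (0.02). The list of activators has 7 filled points, all right of 0, and the list of SMADs has 3 right and 5 left of 0.

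Downstream of the receptors, 3 of 19 tested SMADs and regulators rose and 5 fell, where 15.9% of all genes rose and 18.3% fell. The median log2 fold change of this list was -0.02. The feedback inhibitor genes Smad7 (0.87, SE 0.16, adjusted p = 0.00417) and Skil (0.50, SE 0.09, adjusted p = 0.00346) rose, and so did Smad9. The signal carrier Smad2 (-0.32) and the shared partner Smad4 (-0.38, adjusted p = 0.0278) fell, with Smad5 (-0.43), Usp15 and Ski. Ski was well above background on only 5 of 8 arrays, with overlapping groups (adjusted p = 0.0486). The falls of this list numbered 1 with no filter on dim probes or within slide row 1, and 0 within row 2. They also numbered 1 without any single one of mimic 4 or 7 or control 1 or 8. Smad3 had a log2 fold change of -0.02 (adjusted p = 0.897, SE 0.10). Of 20 SMAD-responsive genes, 9 rose and 3 fell, beside the same shares of all genes. Tsc22d1, an early response gene (1.45, SE 0.13), Pmepa1, a feedback inhibitor (1.14, SE 0.16), Id1 (0.44) and Id2 (0.70) were among those that rose. Ccn2, a matricellular growth factor (0.61), and Snai1 (0.43) rose too, while Snai2 (-0.59) and Col3a1 (-1.07) fell. Tgfbi, whose name means transforming growth factor beta induced, fell by 2.06 on the log2 scale (adjusted p = 0.00244, SE 0.34). The collagen genes Col1a1 (0.07) and Col1a2 (0.06) had adjusted p of 0.647 and 0.614.

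The genes whose pattern over the 8 arrays lay nearest to each of the 3 genes of the set with the smallest p were found by the root mean square difference of log2 values, each gene centred on its control mean. Nearest to Ltbp2 were Csf2rb (0.14), Trp53inp1 (0.15) and Ptp4a3 (0.16). Nearest to Tgfb1 were Ilvbl (0.08), Prdx5 (0.09) and Itm2c (0.09), and nearest to Tgfbr2 were Cdk2 (0.08), Glmn (0.10) and Pom121 (0.10). This is a likeness in the size of change as well as in its pattern.

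Markers of other cells were read beside these results, because macrophages also make TGF-beta 1. Among macrophage and leukocyte markers, 8 of the 9 tested rose, where 15.9% of all genes rose and 18.3% fell. The summed signal of the 10 markers on the array is given in multiples of the array's 75th percentile. It lay between 63.9 and 74.9 on mimic arrays, against 36.1 to 45.4 on control arrays. Itgam, the brightest of the 9 tested, weighed most in this sum. Its mean level was 5.44 on mimic and 4.93 on control arrays, against 3.34 and 2.30 for Csf1r, the next brightest. The groups overlapped for Itgam, and its log2 fold change of 0.51 was the smallest of the 9. Among mimic arrays, mimic 5 was highest for Itgam and lowest for the other tested markers. The sum therefore does not stand for the list as a whole. Ptprc, the pan-leukocyte marker, was not well above background on any array. The markers that rose share with Tgfb1, Ltbp2 and the pathway genes that rose only the direction of the difference between the groups. Whether they vary together from array to array was not examined, and the part of the markers in those rises was not tested. Of 10 fibroblast markers, 1 rose (Dcn) and 2 fell (Col3a1 and Pdgfra), which is near the 34.2% called among all genes. The summed signal of the fibroblast markers lay between 1803 and 1972 on mimic arrays, against 1685 to 1970 on control arrays. Of the other markers tested, 1 of 5 keratinocyte and 1 of 5 melanocyte and Schwann markers rose, and 1 of 3 mural markers fell. The 2 endothelial, 5 skeletal muscle and 5 adipocyte markers did not pass the test. These small counts stand beside the same shares of all genes, 15.9% higher and 18.3% lower. In bulk RNA, a change in the number of cells of a type cannot be told apart from a change in RNA per cell. Mimic arrays had 20756 to 23472 probes clear of background and control arrays 20886 to 22638. None of 4 measures of array quality separated the groups (exact permutation p of 0.343 at the lowest, 0.743 after adjustment).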

How the data were processed

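Per the file headers, the scanner files hold spot intensity values written by Agilent Feature Extraction 11.5.1.1, which had subtracted background and spatial trend on each array. No scaling across arrays had been applied. The table of values that the authors deposited is in log2 units. For probes spotted once, it differs from the log2 processed intensity by a shift that is the same across an array (SD over probes up to 2.78e-07). Probes with more spots, such as those of Tgfb1 and Tgfb3, were not in this check. The 75th percentiles of the table lie between -0.00048 and -8.06e-05 and its medians between -3.78 and -3.60. The table is thus scaled to each array's 75th percentile, as was done here. As a setting it is therefore not an independent check. GeneSpring's settings are not given in the sources used here.

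Control and outlier spots were left out, spots of a probe were averaged on the log2 scale, and each array's 75th percentile over 55681 probes was subtracted. Accessions matched a RefSeq table (GRCm38.p6) for 28331 probes. Probes well above background on at least 4 of 8 arrays were tested, and the brightest stood for its gene. The mimic was set against control by limma 3.58.1 (R 4.3.3, two-sided, Benjamini-Hochberg over all genes, threshold 0.05), checked on simulated data. Class differences used exact permutation tests (scipy 1.17.1). Normexp ran on median spot signals because a mean signal column is not in these files. All arrays lay on 1 slide from 1 scan.

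The 10 genes and the lists were chosen with earlier results of these data known. Pathway genes were named from the 6 of each list with the smallest p. Furin, Itgb1, Itgav, Fbn1, Fn1, Smad3, Ski, Usp15, Dcn, Zfyve9, Snai1, Snai2, Col3a1, Col1a1 and Col1a2 fall outside this and were chosen after their values were seen. The number of arrays limits the precision. Alternatives were other background corrections, normalizations, filters and probe rules, slide position, the deposited table and left-out arrays.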

Additional observations from a re-analysis of the deposited data

Results flagged for a closer look

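Each of the 15 probes was examined in each group, which makes 30 groups of 4 arrays. In 3 of them 1 array stood apart from the rest by Dixon's criterion, and chance gives about 1 in 20 such groups. Ltbp1 in mimic 5 read 3.22, against 2.23 to 2.35 in the other mimic arrays. Tgfbr3 in control 3 read 1.45, against 2.27 to 2.39 in the other controls. The dimmer probe of Tgfbr1 in control 3 read -2.31, against -1.61 to -1.49 in the other controls. Control 3 is a sample whose treatment label names both oligonucleotides.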

How the results depend on the processing

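Ltbp2 rose past the threshold in all 20 other settings (log2 fold changes of 1.51 to 1.85), and Tgfb1 in all but slide row 1 (0.83, adjusted p = 0.0612; range 0.81 to 1.03). Tgfb2 kept its direction but lost its call in 9 of 20 (adjusted p up to 0.573) and Tgfbr2 in 8 of 20 (up to 0.298). Within rows the direction turned for Ltbp1 (-0.0704, row 1), Ltbp4 (0.0595, row 2) and Tgfbr3 (-0.00499, row 2). The 10 genes had 2 rises, 1 within row 1, and 2 falls. The falls numbered 0 with no filter on dim probes, 0 within row 2, 0 without samples 3 and 6, and 1 with slide row or slide column as a block or within row 1. Leaving out single arrays gave 2 to 3 rises and 0 to 3 falls. Member probes gave 1 rise within row 1, 0 falls within row 2, and 1 fall with no filter or without samples 3 and 6, and 1 to 4 falls without single arrays. All genes numbered 1644 higher and 2013 lower with no filter, 768 and 991 within row 1, 685 and 926 within row 2. Pathway genes numbered 13 higher within either row, and 3 lower with no filter, 7 with slide column as a block, 4 within row 1, 5 within row 2 and 4 to 13 without single arrays. Class pairs past the threshold numbered 7, but 0 with normexp, with quantile normalization, within either row, without samples 3 and 6 and without any single array (0 to 0); with fewer arrays the smallest exact permutation p is 0.0571 or more, so these could not pass. A block was not run for pairs. The sample numbers pair no arrays, since the groups share none. Each of the 4 slide columns holds 1 mimic and 1 control array, so the fit with slide column as a block is a paired fit by position. It called 1780 genes higher and 2228 lower, and Tgfbr2 lost its call (adjusted p = 0.0540), while Ltbp2, Tgfb1 and Tgfb2 kept theirs.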
